A study of Homo sapiens with 6 samples.

Results

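The genes described here encode the proteins of the mitochondrial ribosome that carry the symbols MRPL (large subunit) or MRPS (small subunit) followed by a number. Protein-coding genes with such a symbol were taken from the count table, which gave 77 of the 25071 genes listed, 48 MRPL and 29 MRPS. The 6 RNA-seq libraries came from PLC/PRF/5, an established human hepatoma cell line. In 3 libraries the cells had received the empty control vector, and in 3 a plasmid that overexpresses ARD1. All were harvested 48 h after transfection, and no other agent is named for either group. ARD1, also called NAA10, is the enzyme subunit of NatA, which acetylates the N-termini of proteins, and the study's title ties it to ferroptosis evasion and glutathione synthesis in liver cancer. Transfection was transient, into 1 cell line, and separate cultures are not named for libraries of 1 group. The p-values therefore measure library-to-library spread, part of which may be technical.

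The mitochondrial ribosome translates the few mRNAs encoded by mitochondrial DNA, all of which specify membrane subunits of the respiratory chain and of ATP synthase. Its rRNAs are made inside the organelle, whereas every one of its proteins is encoded in the nucleus, translated in the cytosol and imported. Some of the proteins descend from those of the bacterial ribosome, and others were added in mitochondria. In hepatocytes, whose metabolism depends on oxidative phosphorylation, the particle is made continuously and its subunits are assembled from both sets of parts.

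The nuclear genes of this machinery are known for compact promoters with sites for NRF1, GABPA and YY1. RefSeq promoter windows (build GRCh38.p14, 250 bases before to 50 after a start site) were found for 69 of the 77 members, and 34 of these held at least 1 of 3 motifs searched on both strands. The motif AANATGGCG, written for YY1, was in the windows of 18 members (26.1%), against 5.59% of 15843 protein-coding genes with windows of the same length. CCGGAAGT, written for GABPA, was in 11 members (15.9% against 6.97%). The letters GCGC, any base and TGCGC, written for NRF1, were in 9 members (13.04% against 9.67%). Of the 20 matches to AANATGGCG, 16 lay from the start site on, with a median position of 12 bases after it, so the ATG inside the motif can be a start codon. The other motifs lay mainly before the start, with 12 of 13 matches to the GABPA motif and 10 of 10 to the NRF1 motif there. The 4 members with 2 motifs (MRPS9, MRPL36, MRPL38 and MRPL52) had them at separate positions. A match is a run of letters, and no binding was measured.

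AANATGGCG occurred in 4 of the 9 members that rose in ARD1 libraries, in 3 of the 28 with a window that fell, and in 10 of the 31 with a window that did not pass the test. Of the 4 that rose, MRPL9 and MRPS10 kept their calls in all alternatives, and MRPL22 and MRPL32 did not. Of the 3 that fell, MRPL1 and MRPL37 kept theirs and MRPS9 did not. A link between motif and direction was not tested. The stretches of 30 bases around AANATGGCG are shown for the members that changed, since they set rising and falling genes with the same letters side by side. Capitals mark the motif, and each stretch reads 5′ to 3′ along the gene's strand. In the members that rose it is in MRPL9 (chr1:151763464-151763493, minus strand), MRPS10 (chr6:42217834-42217863, minus), MRPL22 (chr5:154941093-154941122, plus) and MRPL32 (chr7:42932373-42932402, plus). In those that fell it is in MRPL1 (chr4:77862835-77862864, plus), MRPL37 (chr1:54200187-54200216, plus) and MRPS9 (chr2:105038079-105038108, plus).
MRPL9: ctgtgcctgtgAACATGGCGgcgcccgttg
MRPS10: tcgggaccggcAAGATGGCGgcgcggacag
MRPL22: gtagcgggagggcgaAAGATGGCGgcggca
MRPL32: ttccagcagggAAAATGGCGctggccatgc
MRPL1: ccggagtgcccAACATGGCGgcggccgtaa
MRPL37: cctgcgcgcggcAACATGGCGgggtccagg
MRPS9: ctcccacagctAACATGGCGgcgccctgtg
The other motifs were found in 0 of the 9 members that rose. Each was in 5 of the 28 that fell (17.9%). Of the 31 with a window that did not pass the test, 4 held NRF1's (12.9%) and 6 held GABPA's (19.4%). An example of each motif follows, NRF1's from MRPL14 (chr6:44127412-44127441, minus strand, motif on the opposite strand) and GABPA's from MRPL27 (chr17:50373174-50373203, minus strand).
MRPL14: tgggcctggcGCGCAGGCGCtaggaagagg
MRPL27: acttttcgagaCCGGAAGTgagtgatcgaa

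A library held between 21857327 and 25011357 counts. NAA10, the gene on the plasmid, stood at 35.6, 32.2 and 36.2 CPM (counts scaled by library size and TMM factor) in the control libraries and at 355, 400.2 and 294 in the ARD1 libraries, which matches the labels; the counts do not separate plasmid from chromosomal transcript. Of 12 hepatocyte and hepatoma markers, 9 were at 1 CPM or more in each group, while APOA1 was below 1 CPM in all libraries and TTR was at 0 in the ARD1 libraries. The 9 were not the same genes, as AFP went from a mean of 3.21 to 0.597 CPM and SERPINA1 from 0.535 to 2.17 CPM. The summed level of the 12 was 3513 to 4296 CPM in control and 2033 to 2103 CPM in ARD1 libraries. KRT8 was the largest part of it, from a mean of 2423 to 1561 CPM. ALB went from 315 to 36.3 CPM and TF from 161 to 17.3 CPM. APOB (log2 fold change 0.33) and HNF4A (0.25) rose, as did SERPINA1. Summed markers of other cell types went from between 78.1 and 98.8 to between 18.2 and 20.7 CPM for fibroblasts (2 of 7 at 1 CPM or more in controls), from between 16.8 and 19.2 to between 8.79 and 9.60 for immune cells (3 of 7), and from between 70.0 and 82.7 to between 90.2 and 103 for endothelium (3 of 6). The endothelial markers went opposite ways, CDH5 from a mean of 33.1 to 0.0677 CPM, PECAM1 from 32.7 to 57.7 CPM and KDR from 8.53 to 35.3 CPM, and CLDN5 was near 0 in both groups. Their part in the results was not tested.

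With TMM scaling, more transcripts of the mitochondrial ribosome fell than rose in ARD1 libraries, and most changes were small; with library totals slightly more rose than fell, as given below. Of the 76 members tested by edgeR's quasi-likelihood test, 9 rose (11.8%) and 30 fell (39.5%) at an adjusted p below 0.05. Among all 15816 genes tested 64.6% were called, 32.4% higher and 32.2% lower, so the members' share of rises lay below that of all genes and their share of falls above it. The median log2 fold change (ARD1 plasmid over control vector) was -0.15 over the members and 0.03 over all genes. The members' middle range ran from -0.52 to 0.06, and that of all genes from -0.49 to 0.49. Changes within 0.25 of zero on the log2 scale were seen in 37 of 76 members (48.7%) and in 27.95% of all genes. At least 2-fold changes past the test numbered 7 falls (9.21%) and 0 rises among members, against 11.8% of all genes lower and 9.71% higher (21.5% in either direction). Such falls numbered 1 with library totals (1.32% of members, against 24.2% of all genes in either direction). With GC and length offsets they numbered 3 (3.95% against 19.9%). DESeq2, run on the same counts, called 6 members higher and 30 lower, against 22.7% and 24.8% of its 20696 genes (47.5% in either direction). These are bulk libraries, in which fewer cells with a transcript and less of it per cell cannot be told apart.

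**Figure D1:**
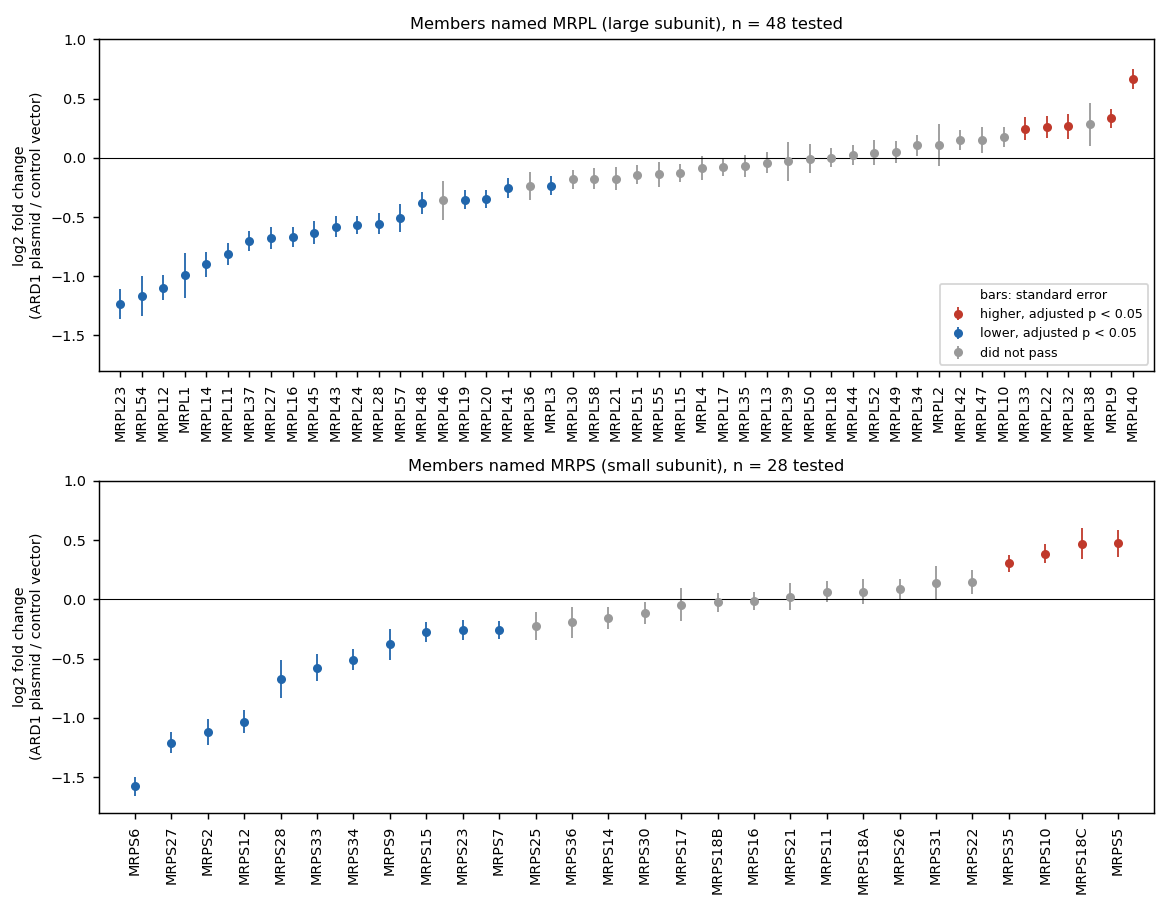
Log2 fold change (ARD1 plasmid over control vector, y axis) of each tested member, ordered by value, with the 48 large-subunit genes above and the 28 small-subunit genes below; points are edgeR estimates, bars standard errors, and colours show whether the test was passed. Falls reach -1.58 at MRPS6, and the highest value is 0.67 at MRPL40.

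The large and the small subunit gave similar counts; a difference between them was not tested. In the large subunit 5 of 48 members rose (10.4%) and 19 fell (39.6%), with a median of -0.16 and 3 falls of at least 2-fold. In the small subunit 4 of 28 rose (14.3%) and 11 fell (39.3%), with a median of -0.14 and 4 falls of at least 2-fold. These shares and the counts by region below stand beside 32.4% of all genes higher and 32.2% lower. MRPS30 (-0.12) and MRPS18A (0.07) carry small-subunit symbols but sit in the large subunit, and neither passed the test; with them moved the medians were -0.14 (large) and -0.18 (small). MRPS36 (-0.19, not past the test) is named KGD4 in RefSeq, a component of the 2-oxoglutarate dehydrogenase complex. The ratio of summed CPM of the large over the small subunit was 1.74, 1.73 and 1.81 in control and 1.79, 1.78 and 1.85 in ARD1 libraries. These ranges overlap.

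**Figure D2:**
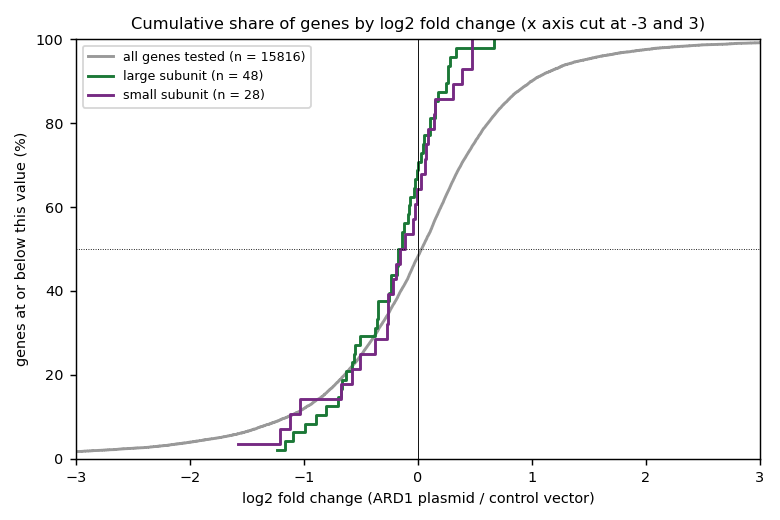
Cumulative share of genes (y axis, percent) at or below each log2 fold change (x axis, from -3 to 3) for all genes tested and for the members of each subunit. The members' curves pass 50% at -0.16 (large) and -0.14 (small), left of that of all genes at 0.03, and end at or below 0.67.

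The summed level of all members was 3222 ± 81.6 CPM in control and 2763 ± 116 CPM in ARD1 libraries (SD, n = 3), a ratio of 0.858. As a share of all counts, without TMM factors, the same genes held 0.294 ± 0.00842% and 0.303 ± 0.0119% (SD, n = 3). The direction of the sum therefore depends on the scaling. With library totals in place of TMM the all-gene median moved from 0.03 to 0.30, and 26 members were called higher and 20 lower, against 48.1% of all genes higher and 22.0% lower (70.1% in either direction). The higher share of the calls among members thus went from 23.1% to 56.5%, and among all genes from 50.2% to 68.6%. Relative to the median of all genes the members' median was 0.18 lower under either scaling. This gap could hardly differ, since the change of scaling moves all genes by nearly the same amount. The move was upward, so it could hardly remove a rise. Each member called higher with TMM was also called higher with library totals (9 of 9), which adds no support for these rises. Of the 30 called lower 20 remained lower. Among members described by region below, the falls of MRPL48 (adjusted p = 0.323), MRPS9 (0.467), MRPS15 (0.909), MRPS7 (0.955) and MRPL3 (0.804) were not called with library totals. Taken library by library, the median member lay -0.21, -0.08 and -0.18 from the control mean (log2 with 0.1 CPM added) in ARD1 libraries 1, 2 and 3, and 0.01, -0.04 and 0.01 in the controls, so all ARD1 libraries were lower and replicate 2 least so.

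**Figure D3:**
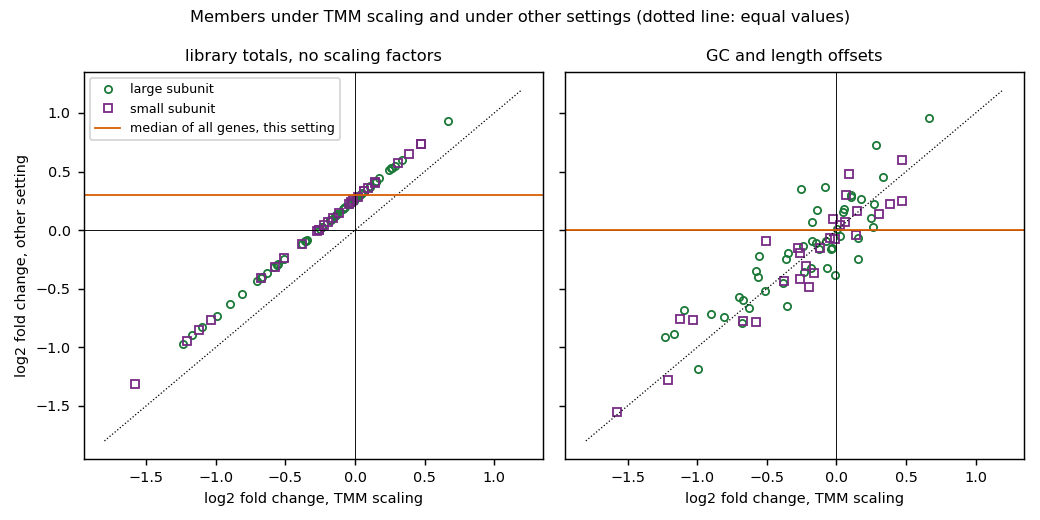
Log2 fold change of each member with TMM scaling (x axis) against another setting (y axis): library totals and GC and length offsets. Under library totals the points lie above the dotted line of equal values, as does the median of all genes at 0.30; under the offsets they scatter around it.

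Among the proteins of the small subunit's body and platform, MRPS6, the relative of bacterial S6, had the largest fall of all members. MRPS6 (chr21, 34073224 to 34143034, plus strand, GRCh38) was at 59.6, 57.0 and 61.8 CPM in control and at 19.3, 20.8 and 19.7 CPM in ARD1 libraries, a log2 fold change of -1.58 (SE 0.0821, adjusted p = 4.93e-10). The groups lie far apart, with the highest ARD1 library well under the lowest control. Exons of SLC5A3, an inositol transporter gene on the same strand, cover up to 9.61% of its exon bases, and that gene fell by 0.79 on the log2 scale. MRPS15, an rRNA-binding protein, fell less (-0.28, adjusted p = 0.00858; 0.0608 without ARD1 replicate 1), and MRPS18C, which neighbours MRPS6 in the platform, rose. MRPS18C was at 7.19, 9.41 and 9.47 CPM in control and 12.7, 11.6 and 11.9 CPM in ARD1 libraries (log2 0.47, SE 0.128, adjusted p = 0.00474), without overlap. Of its exon bases 40.2% are shared with ABRAXAS1 on the opposite strand, and the strand setting of the counting is not given in the sources used. With GC and length offsets its rise was 0.24 (adjusted p = 0.0431), and 0.0582 when the replicate block was added. MRPS11 (0.06), MRPS16 (-0.01) and MRPS17 (-0.05) did not pass the test, and the group's median was -0.03 over 6 genes.

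The proteins at the decoding centre and along the mRNA channel, where codon and anticodon meet, moved in both directions. MRPS12, the relative of bacterial S12 that monitors codon pairing, was at 81.3, 64.1 and 70.5 CPM in control and 33.4, 39.0 and 33.0 CPM in ARD1 libraries (-1.03, SE 0.0988, adjusted p = 3.69e-07). MRPS2 (chr9, 135499984 to 135504673, plus strand), at the back of the subunit, was at 84.3, 63.6 and 64.4 CPM and at 33.0, 35.2 and 29.3 CPM (-1.12, SE 0.110, adjusted p = 4.92e-07). In both genes control replicate 1 was the highest library and the groups did not overlap. On the opposite strand SARS2, the mitochondrial seryl-tRNA synthetase gene, covers 16.3% of the exon bases of MRPS12, and other genes cover 14.4% of those of MRPS2. MRPS5, at the entry of the mRNA channel, rose from 12.4, 16.4 and 14.1 CPM to 19.5, 19.3 and 20.8 CPM (0.47, SE 0.112, adjusted p = 0.00174). MRPS24, the relative of bacterial S3, was the only member too low to be tested, with 4, 0 and 12 counts in control and 1, 6 and 1 in ARD1 libraries; 23.2% of its exon bases also belong to the read-through gene URGCP-MRPS24.

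In the head of the small subunit, which swivels as tRNAs move, MRPS10 rose while 2 of the other 3 proteins fell. Calls in either direction made up 75% of this region, against 64.6% of all genes. MRPS10 (chr6, minus strand), whose stretch with AANATGGCG is shown above, was at 52.4, 57.1 and 52.9 CPM in control and 66.9, 76.8 and 68.3 CPM in ARD1 libraries (0.39, SE 0.0799, adjusted p = 0.000648; 0.22 with GC and length offsets). MRPS9, which carries the same motif, went from 10.7, 13.97 and 11.9 to 8.58, 10.5 and 8.94 CPM (-0.38, adjusted p = 0.0194), and its call was lost without control replicate 2 (adjusted p = 0.0766), ARD1 replicate 1 (0.0845) or ARD1 replicate 3 (0.0698). MRPS7, an rRNA-binding protein of early assembly, fell by 0.26 on the log2 scale (adjusted p = 0.00652; 0.0562 without ARD1 replicate 3). MRPS14 (-0.16) did not pass the test. For MRPS10, MRPS9 and MRPS7 the groups did not overlap in CPM, and the fall of MRPS9 was about as large as the rise of MRPS10. With GC and length offsets the fall of MRPS9 was -0.43.

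Of the mitochondria-specific small-subunit proteins, MRPS27 fell most and MRPS35 rose. MRPS27 (chr5, 72219409 to 72320646, minus strand), a pentatricopeptide-repeat RNA-binding protein, was at 91.0, 80.0 and 77.0 CPM in control and 35.9, 38.6 and 32.8 CPM in ARD1 libraries (-1.21, SE 0.0888, adjusted p = 2.16e-08). MRPS35 (chr12, plus strand) was at 117, 129 and 125 CPM and at 154, 158 and 146 CPM (0.31, SE 0.0701, adjusted p = 0.00144; 0.14 with GC and length offsets). Both are well-counted genes whose groups do not overlap. By the mean of both groups MRPS35 was the most abundant small-subunit transcript per length, at 65.4 CPM per kb in control and 80.9 in ARD1 libraries. In control libraries alone MRPS34 stood higher, at 68.9 CPM per kb (48.4 in ARD1 libraries). MRPS25 was the lowest one tested, at 3.99 and 3.43 CPM per kb, with no call (-0.22).

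**Figure D4:**
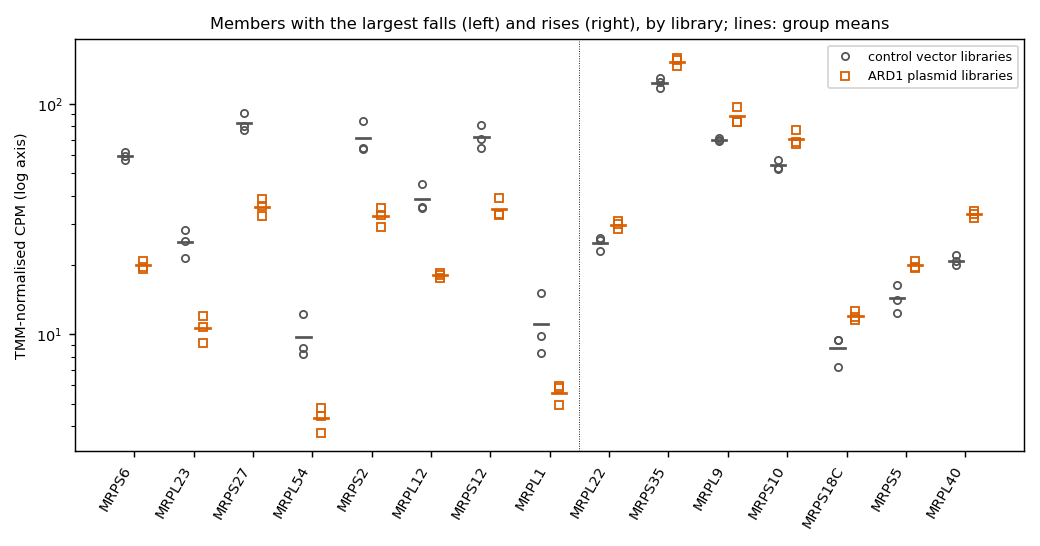
TMM-normalised CPM (log axis) in each of the 3 control and 3 ARD1 libraries for the 8 members with the largest falls and the 7 members that rose without overlap; lines are group means. The separation is wide for MRPS6 and narrow for MRPL22, whose highest control is 26.2 CPM and lowest ARD1 library 28.6 CPM.

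In the large subunit, the stalks that bind translation factors and release the outgoing tRNA had 3 of 4 proteins lower, with a median of -0.90. That is 75%, against 32.2% of all genes lower and 64.6% called in either direction. MRPL12 (chr17, 81703357 to 81707526, plus strand), the factor-binding protein of the L7/L12 stalk, also known to bind the mitochondrial RNA polymerase, was at 44.8, 35.6 and 35.2 CPM in control and 18.0, 17.6 and 18.4 CPM in ARD1 libraries (-1.10, SE 0.104, adjusted p = 3.56e-07). MRPL1, the protein of the L1 stalk, was at 8.32, 9.84 and 15.04 CPM and at 5.98, 4.91 and 5.84 CPM (-0.99, SE 0.190, adjusted p = 0.000338). The ARD1 libraries of MRPL12 were tightly grouped and its control replicate 1 was the highest, while MRPL1 is a low gene with control replicate 3 above the others; for both genes the groups do not overlap. With GC and length offsets the fall of MRPL12 was -0.68. Exons of AC139530.2, on the same strand, cover 68.2% of the exon bases of MRPL12, so the assignment of its reads is uncertain. MRPL11, at the base of the stalk, was at 45.0, 39.7 and 38.7 CPM and at 23.8, 24.4 and 22.1 CPM (-0.81, SE 0.0904, adjusted p = 1.86e-06). MRPL10, the protein that anchors MRPL12, did not pass the test (0.18, adjusted p = 0.0756), although its groups did not overlap in CPM. With library totals it was called higher (0.44, adjusted p = 0.000189), where the median of all genes was 0.30. With GC and length offsets it was called higher too (0.27, adjusted p = 0.0012).

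Around the peptidyl transferase core and tunnel wall, where peptide bonds form, 0 of 5 proteins rose and 3 fell, with a median of -0.24. The falls make up 60%, against 32.2% of all genes lower and 64.6% called in either direction. MRPL27, which in bacteria reaches towards the tRNA ends, was at 27.2, 24.998 and 27.5 CPM in control and 16.1, 17.2 and 16.6 CPM in ARD1 libraries (-0.68, SE 0.0917, adjusted p = 1.32e-05). MRPL16 was at 51.9, 52.4 and 54.4 CPM and at 30.4, 34.007 and 35.4 CPM (-0.67, SE 0.0829, adjusted p = 5.46e-06). For both, each ARD1 library lay under each control. MRPL3 fell by 0.24 on the log2 scale, a call lost without ARD1 replicate 1 (adjusted p = 0.0893) or ARD1 replicate 3 (0.0868). MRPL2 (0.11) and MRPL4 (-0.09) did not pass the test.

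At the tunnel exit, where the nascent chain meets the inner membrane, 3 of 5 proteins fell and 1 rose, with a median of -0.56. These are 60% and 20%, against 32.2% of all genes lower and 32.4% higher. MRPL23 (chr11, 1947278 to 1984522, plus strand), whose bacterial relative docks chaperones and the membrane insertion machinery, was at 25.5, 21.4 and 28.4 CPM in control and 9.21, 10.8 and 12.005 CPM in ARD1 libraries (-1.23, SE 0.126, adjusted p = 7.43e-07). MRPL45, which ties the ribosome to the membrane, was at 43.5, 41.8 and 41.7 CPM and at 23.7, 30.8 and 27.4 CPM (-0.63, SE 0.0971, adjusted p = 4.57e-05). Each of them kept its groups apart. MRPL24, a tunnel-exit protein that starts assembly in bacteria and the most abundant member per length (194 CPM per kb in control, 131 in ARD1 libraries), was at 186, 159.8 and 169 CPM and at 119, 121 and 108 CPM (-0.56, adjusted p = 1.38e-05). MRPL22, which lines the tunnel beside MRPL4, had the one rise, from 26.2, 23.0 and 25.7 to 28.6, 30.9 and 30.2 CPM (0.26, SE 0.0893, adjusted p = 0.0187). That call was lost with offsets for GC content and length (0.02, adjusted p = 0.819), with DESeq2 (0.0567), and without control replicate 2 (0.139), ARD1 replicate 2 (0.0765) or ARD1 replicate 3 (0.0625). MRPL47 (0.15) did not pass the test.

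The central protuberance, which contacts the small subunit's head, held the largest rise of all members. MRPL40 (chr22, 19431902 to 19436075, plus strand), a mitochondria-specific protein of this region, was at 20.7, 19.96 and 22.0 CPM in control and 33.1, 34.4 and 31.9 CPM in ARD1 libraries (0.67, SE 0.0873, adjusted p = 9.64e-06). The gap between the groups exceeds the range within either. MRPL48 fell by 0.38 on the log2 scale (adjusted p = 0.00284). MRPL46 (-0.36), MRPL58 (-0.18), MRPL18 (0.00) and MRPL38 (0.28) did not pass the test, and the median of the 6 was -0.09. MRPL38 was the lowest large-subunit transcript per length, at 1.72 CPM per kb in control and 2.10 in ARD1 libraries. Exons of AC087289.3, on the same strand, cover 37.5% of the exon bases of MRPL38, so the assignment of its reads is uncertain. With GC and length offsets MRPL38 was called higher (0.73, adjusted p = 0.00192).

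Outside these regions, MRPL54 fell and MRPL9 rose. MRPL54 (chr19, plus strand), a mitochondria-specific protein, was at 12.2, 8.22 and 8.71 CPM in control and 4.81, 4.42 and 3.75 CPM in ARD1 libraries (-1.17, SE 0.170, adjusted p = 2.72e-05). MRPL9, the relative of bacterial L9, was at 68.9, 69.7 and 71.2 CPM and at 83.4, 97.2 and 83.8 CPM (0.33, SE 0.0783, adjusted p = 0.00168), with 33.2% of its exon bases shared with OAZ3 and another gene on the opposite strand. The remaining rises, MRPL32 (0.27) and MRPL33 (0.25), had overlapping libraries, and both calls were lost without control replicate 2, ARD1 replicate 2 or ARD1 replicate 3, with adjusted p of 0.0848, 0.15 and 0.101 for MRPL32 and 0.139, 0.202 and 0.0877 for MRPL33. MRPL32 also lost its call without control replicate 1 (0.0733), and with DESeq2 neither passed (0.0698 and 0.0874). In CPM the groups did not overlap for 9 members higher and 35 lower, against 35.6% and 34.0% of all genes (69.6% in either direction).

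Grouped by descent, counts are set against 32.4% of all genes higher and 32.2% lower. Of 44 tested proteins with a bacterial homologue 7 rose and 19 fell, with a median of -0.17, and of 29 mitochondria-specific proteins 2 rose and 11 fell, with a median of -0.14. These counts and medians are with TMM scaling only. MRPS36, MRPL55 and MRPS18A were placed in neither group. The members that rose had a median GC content of 42.1% in their longest coding transcript, those that fell 50.7%, and those without a call 48.5%. A pseudogene of the member is annotated in GENCODE 29 for 8 of 9 that rose, 9 of 30 that fell and 18 of 37 without a call; reads shared with such copies make these counts uncertain. MRPL40, MRPS5, MRPS18C, MRPS10, MRPL9, MRPS35 and MRPL22 have such copies, as does MRPS6. Whether GC content or these copies had a part in the direction of the changes was not tested beyond the GC and length offsets, with which 7 of the 9 rises and 28 of the 30 falls kept their calls and all members together had 15 rises and 37 falls (all genes 33.4% higher and 35.1% lower, 68.5% in either direction).

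The mRNAs that the ribosome translates were lower as well. Of the 13 mRNAs encoded by mitochondrial DNA 11 fell (84.6%) and 0 rose, against 32.2% of all genes lower and 32.4% higher. With library totals 10 fell (76.9%) and 1 rose (7.69%), against 22.0% and 48.1% of all genes. The median with TMM was -0.67, and the falls were led by MT-ATP6 (-0.97), MT-ATP8 (-0.90), which overlaps it, and MT-CYB (-0.84). MT-ND6 (-0.07) and MT-ND5 (-0.17) did not pass the test. Their summed share of counts went from 7.70% to 6.05%, so this sum was lower with library totals too. Nuclear copies of mitochondrial DNA can share these reads. The mitochondrial rRNAs were not analysed here.

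Among 5 mitoribosomal proteins with other symbols 3 fell (60%) and 0 rose, with a median of -0.20. Of all genes 32.2% were lower and 64.6% were called in either direction. With library totals 2 fell and 1 rose (40% and 20%, against 22.0% and 48.1% of all genes). CHCHD1 was at 17.6, 19.5 and 20.5 CPM in control and 9.08, 10.7 and 9.06 CPM in ARD1 libraries (-0.999), AURKAIP1 fell by 0.83 and PTCD3 by 0.20 on the log2 scale, whereas DAP3 (-0.09), a GTP-binding protein of the small-subunit head, and GADD45GIP1 (-0.08) did not pass the test. The call for PTCD3 was lost when any 1 library was left out except control replicate 1, with adjusted p from 0.0504 to 0.116. Among 27 tested assembly and rRNA modification factors 8 rose and 10 fell (29.6% and 37.0%, median -0.06), shares near those of all genes (32.4% and 32.2%), and with library totals 12 rose and 4 fell (all genes 48.1% and 22.0%). RPUSD4, a pseudouridine synthase of the large rRNA (-0.71), NOA1, a GTPase of small-subunit assembly (-0.53), and C1QBP (-0.52) fell. GTPBP10, a GTPase of late large-subunit assembly (0.84), RPUSD3 (0.53) and NGRN (0.50) rose.

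Of 18 translation factors 3 rose and 5 fell (16.7% and 27.8%, against 32.4% and 32.2% of all genes), with a median of 0.07. With library totals the balance turned, to 8 rises and 2 falls (44.4% and 11.1%), with a median of 0.33. All genes moved too, to 48.1% higher and 22.0% lower, with a median of 0.30. GUF1, a back-translocating GTPase, went from 16.1, 19.2 and 18.8 CPM to 43.8, 43.6 and 40.6 CPM (1.24), and MTIF2 (0.47), the initiation factor that brings the first tRNA, and GFM2 (0.45), a recycling factor, also rose. OXA1L, the insertase at the tunnel exit (-0.76), MTIF3 (-0.62) and TUFM, the elongation factor that delivers tRNAs (-0.50), fell. Of 19 genes of mitochondrial transcription and RNA processing 2 rose and 9 fell (10.5% and 47.4%), although the median was 0.06. With library totals 8 rose and 5 fell (42.1% and 26.3%, against 48.1% and 22.0% of all genes), with a median of 0.32. TBRG4 (-0.87), POLRMT, the mitochondrial RNA polymerase (-0.80), and FASTK (-0.56) fell. MTPAP (0.28) and HSD17B10 (0.25) rose, each with calls lost when single libraries were left out: MTPAP without control replicate 3 (0.0844) or ARD1 replicate 1 (0.0776) or 2 (0.0509), HSD17B10 without control replicate 2 (0.113) or 3 (0.115) or ARD1 replicate 1 (0.0647) or 2 (0.0655), values being adjusted p.

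**Figure D5:**
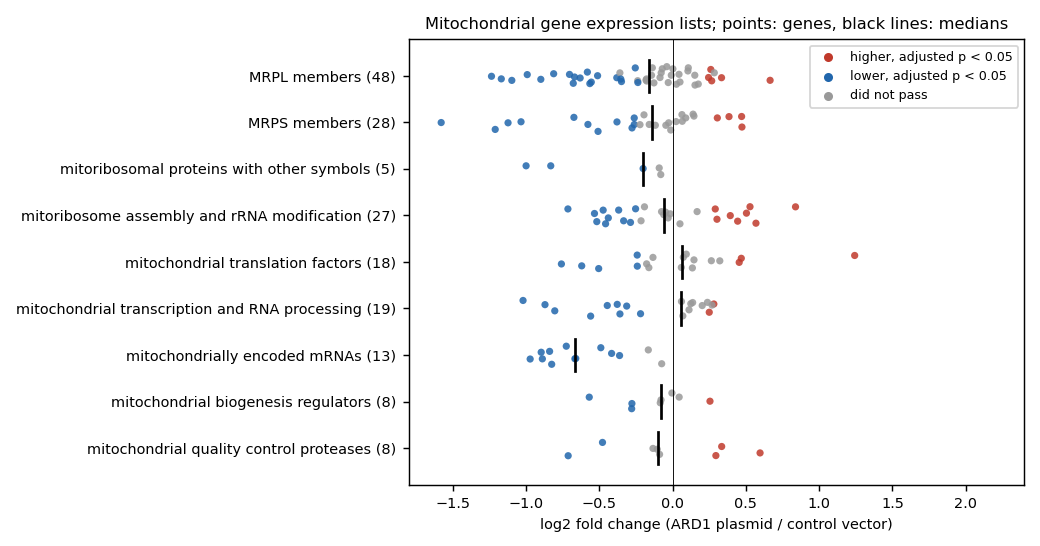
Log2 fold change (x axis) of each gene in the lists of mitochondrial gene expression (rows), points being genes and black lines medians. The 13 mRNAs encoded in mitochondria have the lowest median, -0.67, and the medians of the nuclear lists lie between -0.20 and 0.07.

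Of 8 tested regulators of mitochondrial biogenesis 1 rose and 3 fell (12.5% and 37.5%, against 32.4% and 32.2% of all genes), with a median of -0.08. With library totals 3 rose and 1 fell (37.5% and 12.5%, against 48.1% and 22.0% of all genes), with a median of 0.18. Among the factors whose motifs were searched, YY1 fell by 0.28 on the log2 scale, from 156, 163 and 162 CPM to 131, 134 and 131 CPM, NRF1 rose by 0.26, and GABPA (-0.08) did not pass the test. NRF1's call was lost without control replicate 2 (adjusted p = 0.0943), control replicate 3 (0.105) or ARD1 replicate 2 (0.175), and with DESeq2 (0.103). PPRC1 (-0.57) and ESRRA (-0.28) fell, the latter with an adjusted p of 0.052 without ARD1 replicate 3. Of 8 quality-control proteases that degrade unassembled proteins 3 rose and 2 fell (37.5% and 25%, against 32.4% and 32.2% of all genes), with a median of -0.10. With library totals 4 rose and 2 fell (50% and 25%, against 48.1% and 22.0% of all genes). AFG3L2 (0.60), which processes MRPL32 before it joins the ribosome, YME1L1 (0.34) and HTRA2 (0.30) rose, and CLPP (-0.71) and LONP1 (-0.48) fell. With GC and length offsets the calls for LONP1 (adjusted p = 0.127), YME1L1 (0.0982) and MTPAP (0.732) were lost, and AURKAIP1 (-0.33), POLRMT (-0.35), FASTK (-0.14), TBRG4 (-0.57), TUFM (-0.25), GFM2 (0.29), MTIF2 (0.30), GTPBP10 (0.43), RPUSD3 (0.83), CLPP (-0.32) and HTRA2 (0.62) had these log2 fold changes, each with its call kept. With library totals the calls for YY1 (adjusted p = 0.844), ESRRA (0.908) and MTIF3 (0.076) were lost.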

How the data were processed

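The deposited table gives raw counts as whole numbers, 1 row per Ensembl gene and 1 column per library (6 libraries), not normalized. Per the submitters' processing notes, cutadapt 4.6, STAR 2.7.11b and the GRCh38 build were used. For the counting program, its strand setting and its annotation, nothing is stated in the sources used. Per the labels, ribosomal RNA was depleted and the library kit was directional. The 25071 genes listed have at least 2 counts in all; 9255 were not tested after edgeR's filterByExpr.

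Members and lists were chosen with earlier results of these data known. They are described by counts and medians beside those of all genes, with no test over a list. Groups were compared with edgeR 4.0.16 (R 4.3.3), quasi-likelihood test, TMM scaling, no covariate, Benjamini-Hochberg adjusted over all 15816 genes tested, threshold 0.05. On simulated counts, in which a small part of the genes changed, the fit was checked for recovery of known changes. That check does not bear on the choice of scaling. CPM per kb uses the longest coding transcript of GENCODE 29, which also gave coordinates and GC content. The rule named the 8 largest falls and up to 8 rises past the threshold with at least 1 CPM and no overlap between groups (7 met it), the highest and lowest members per kb in each subunit, all genes of 7 role groups, and up to 3 genes per list and direction by smallest p; other members and genes named were chosen after their values were seen. MRPL53 and the mitochondrial rRNAs were not analysed here. Alternatives were RLE scaling, library totals, DESeq2 1.42.0, no filter, at least 1 CPM in 3 libraries, a block for replicate number, loess offsets (span 0.5) for GC content and length with and without that block, and each library left out. Counts are not independent molecules.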

Additional observations from a re-analysis of the deposited data

How the results depend on the processing

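Across 14 alternatives 5 of the 9 member rises (MRPL40, MRPL9, MRPS10, MRPS35 and MRPS5) and 19 of the 30 falls, among them the 8 largest, kept their calls. With library totals the rises numbered 15 in the large and 11 in the small subunit, the falls in the small subunit 7, and the medians were 0.10 and 0.13. Members below zero went from 51 to 27 under that scaling; among members and other named genes called under at least 1 of both scalings the sign turned for MRPS23 (0.0016), MRPS7 (0.0046), MRPL41 (0.0113), MRPL3 (0.0257), MRPL17 (0.19), MRPS18B (0.24), MRPS16 (0.25) and PTCD3 (0.062). DESeq2 called 2 rises in the large subunit. GC and length offsets called 9 there and, among members and named genes called with or without them, turned MRPL41 (0.35), MRPL4 (0.37), MRPL42 (-0.25) and ESRRA (0.13), and the same offsets with the replicate block gave 9 and the same values. Leaving out each library gave 2 to 6 rises in the large subunit (2 without control replicate 2, ARD1 replicate 2 or ARD1 replicate 3) and 8 to 13 falls in the small subunit. The cause was not tested. Same-numbered libraries did not deviate together (r across genes of 0.0168, -0.0356 and 0.0342). With 3 libraries per group these values cannot show whether same-numbered libraries were prepared together. With the replicate number as a block the members still had 9 rises and 30 falls. In no other alternative did a subunit's count of calls move by over 1.5 times. Arms of 3 libraries limit the precision of small changes, and MRPS24 lay too low for a test.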

Other observations

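Members often shared a start region with another gene: 17 of 76 tested members (22.4%) had a protein-coding partner starting within 1000 bases on the opposite strand, against 1259 of 13106 tested protein-coding genes (9.61%). The partners named here were chosen after their values were seen. MRPL27 starts 6 bases from EME1, a subunit of a structure-specific DNA nuclease; MRPL27 fell (-0.68) and EME1 rose (0.37, adjusted p = 0.0104). MRPS34 starts 52 bases from EME2, and both were lower (-0.51 and -0.74, adjusted p = 0.000114 and 0.000103), although the fall of MRPS34 was smaller and not past the test with GC and length offsets (-0.09, adjusted p = 0.162). MRPL36 (-0.24) did not pass the test while NDUFS6, a complex I subunit that starts 34 bases away, fell (-0.86, adjusted p = 5.81e-06). MRPL46 and MRPS11, a large- and a small-subunit gene, start 34 bases apart, stood at 4.52 and 32.5 CPM in control libraries, and neither passed the test.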
